A study of Mus musculus with 38 samples.

Results

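The genes described here encode the core of the mTOR, AKT and S6 kinase route that controls translation: Mtor, Rptor, Akt1, Akt2, Rps6kb1, Rps6ka1, Eif4ebp1, Eif4ebp2, Eef2k and Tsc2. They were chosen by name, and all 10 were found among the 23125 genes of the expression table. Expression was measured as FPKM (fragments per kilobase of transcript, scaled to the mapped fragments of the library) after polysome fractionation of mouse oocytes and embryos at 6 stages. At each stage the heavier 5 of 10 gradient fractions were pooled as polysomes, which hold mRNA loaded with several ribosomes, and the first 5 as non-polysomes, with 3 libraries of each. The animals were wild-type ICR mice of at least 6 weeks, and cycloheximide was present at lysis in every group to hold ribosomes on mRNA. GV groups were fully grown oocytes kept at prophase I with IBMX, and MII groups were oocytes matured in culture to metaphase II. Zygote and two-cell groups came from superovulated, mated females, and embryos held in M-phase with nocodazole made up the groups zygote M and two-cell M. Each library was made from pooled oocytes or embryos, so it averages over cells, and the M-phase embryos carry a drug that the other groups do not. Libraries are named here by the letter in their labels (A to C, and B to D for zygotes), and values are given in that order. The libraries measured mRNA, so neither the activity nor the phosphorylation of these kinases was read.

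In the textbook pathway, growth factor signals reach AKT through PI3K, and AKT (Akt1, Akt2) phosphorylates the TSC complex, whose subunit tuberin (Tsc2) keeps the small GTPase RHEB inactive. Free RHEB activates mTOR (Mtor) within mTORC1, where Raptor (Rptor) recruits the substrates. mTORC1 phosphorylates S6 kinase (Rps6kb1), which acts on ribosomal protein S6 and other targets, and the 4E-BPs (Eif4ebp1, Eif4ebp2), small proteins that bind the cap-binding factor eIF4E and hold back cap-dependent initiation until they are phosphorylated. eEF2 kinase (Eef2k) slows elongation by phosphorylating eEF2, and S6 kinase and RSK1 (Rps6ka1), a kinase downstream of MAPK, can inactivate it. Fully grown oocytes stop transcription, and until the embryonic genome is activated the embryo relies on stored maternal mRNA, whose entry into polysomes is controlled largely through the poly(A) tail.

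Over all 36 libraries, the steps between low FPKM values implied 8490000 to 26700000 fragments per library (median 21050000), with 58.1 to 71.5% of the low values whole within 0.05 of a step. The 6 two-cell M libraries tended to be lower, with 8490000 to 19400000 fragments and 8538 to 12042 genes above the table's floor of 0.01 FPKM. The other libraries had 13200000 to 26700000 fragments and 10099 to 17066 genes, so both ranges overlapped. Within each fraction the gene counts of two-cell M were the lowest (at most 12042 against at least 12625 in polysomes, and 9271 against 10099 in non-polysomes). Markers were read against the labels: the summed level of 10 oocyte genes went from 3617 to 3756 FPKM in GV polysomes to 32.7 to 172 FPKM in two-cell M polysomes, and 6 mRNAs known to enter polysomes during maturation summed to 536 to 891 FPKM in GV and 1721 to 2304 FPKM in MII polysomes. A list released with the study has GV and MII exchanged relative to the deposited columns. The sign of every GV to MII value therefore rests on the deposited labels, which were followed here and which the 6 maturation mRNAs also follow. Summed levels of 6 genes of the activated embryonic genome were 250 to 423 FPKM in two-cell non-polysomes and 9.77 to 32 FPKM in non-polysomes of the stages before. In polysomes the same genes were less distinct, at 59.3 to 96 FPKM in two-cell against up to 55.1 FPKM in GV, and in two-cell M they summed to 9.52 to 75.1 FPKM in polysomes and 24.7 to 269 FPKM in non-polysomes. Of other cell types, 8 of 10 listed cumulus and granulosa genes were in the table, with sums of 0.08 to 4.74 FPKM in polysomes (highest in MII, from Inha) up to 23.6 FPKM in MII non-polysomes and up to 20.1 FPKM in two-cell non-polysomes, where 2 of 3 libraries were at the floor for Inha. The part of such cells in the MII and two-cell values was not tested. In bulk libraries of this kind fewer molecules in each cell and fewer cells holding the mRNA cannot be told apart. Eef2k and Akt1 were the most abundant of the 10 mRNAs (geometric means of 3.28 and 2.44 FPKM over all libraries, above 92.6% and 91.3% of genes), followed by Eif4ebp1 (0.708), Akt2 (0.44), Rps6ka1 (0.311), Rps6kb1 (0.124), Eif4ebp2 (0.117), Tsc2 (0.107), Mtor (0.0398) and Rptor (0.032). The test was run on the 7967 genes whose geometric mean reached 0.1 FPKM, which included 8 of the 10 and left out Mtor and Rptor. By the length of the longest transcript, these levels correspond to roughly 900 fragments of Eef2k, 220 of Akt1, 28.1 of Eif4ebp1, 19.3 of Rps6kb1, 17.7 of Eif4ebp2, 10.9 of Mtor and 5.77 of Rptor in the median polysome library, so counting error is large for most of the 10.

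The cleavage signals at the 3′ ends of the 4 mRNAs whose values carry most of the results are shown first, because the length of the poly(A) tail made at these ends is a main point of translational control in oocytes. Each line gives the last 30 bases of the longest coding transcript (GENCODE M21 annotation, GRCm38), 5′ to 3′, with the polyadenylation hexamer in capitals. The Eef2k end lies at chr7:120907421-120907450 on the plus strand, the Akt1 end at chr12:112653821-112653850 on the minus strand, the Eif4ebp1 end at chr8:27276645-27276674 on the plus strand and the Rps6ka1 end at chr4:133847290-133847319 on the minus strand.
Eef2k: gcacataaAATAAAatagaatcaaaatgtg
Akt1: aaattcAATAAAaattgcttttcaagcttg
Eif4ebp1: cATTAAAaaaggtagcatgaagtcaattgc
Rps6ka1: cctttctAATAAActtacaatccagttaaa
The hexamer (AATAAA or ATTAAA, sense strand) begins 22, 24, 29 and 23 bases before the annotated end. It was found in the last 40 bases in all 10 genes and in 15326 of 21901 protein-coding genes (70%). The letters TTTTAT or TTTTAAT, forms of the cytoplasmic polyadenylation element, were found in the last 100 bases in 0 of the 10 genes and in 3635 of the 21901 (16.6%). This says only that these letters are not in that window of these transcripts.

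A further feature of mTORC1 targets is a pyrimidine tract at the 5′ end (the TOP motif) of mRNAs for ribosomal proteins and elongation factors. The first 30 bases of the substrate mRNAs Rps6 (chr4:86857338-86857367, minus strand) and Eef2 (chr10:81176631-81176660, plus strand) are given from RefSeq (GRCm38.p6), with CTCTT in capitals. It begins at base 1 in Rps6 and at base 16 in Eef2, so in this Eef2 sequence it lies inside the mRNA and not at the annotated start.
Rps6: CTCTTtttcgtgacgcctcccaggcgctcg
Eef2: gttgacgtcagcggtCTCTTccgccgcagc
CTCTT was found on the sense strand in the first 50 bases of 1811 of 27025 genes (6.7%) and in 0 of the 9 pathway members with a sequence. Eif4ebp1 had no entry. A C followed by 4 bases that are each C or T at the annotated start was present in 673 of 27025 genes (2.49%), again in 0 of the 9.

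Whether each mRNA varied over the 6 stages was asked with limma's moderated F-test on log2 FPKM, fitted over all 36 libraries with p-values adjusted over all genes tested. In polysomes 4 of the 8 tested genes varied, against 62.9% of all genes tested: Eif4ebp1 (adjusted p = 0.00098), Eef2k (0.0015), Akt1 (0.00165) and Rps6kb1 (0.0153). In non-polysomes 5 of the 8 varied, against 78.3% of all genes: Akt1 (4.36e-07), Eef2k (1.54e-05), Eif4ebp1 (0.000108), Rps6ka1 (0.00307) and Rps6kb1 (0.00328). Neither share was above that of all genes. The 3 others, Akt2, Eif4ebp2 and Tsc2, did not pass in either fraction.

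**Figure D1:**
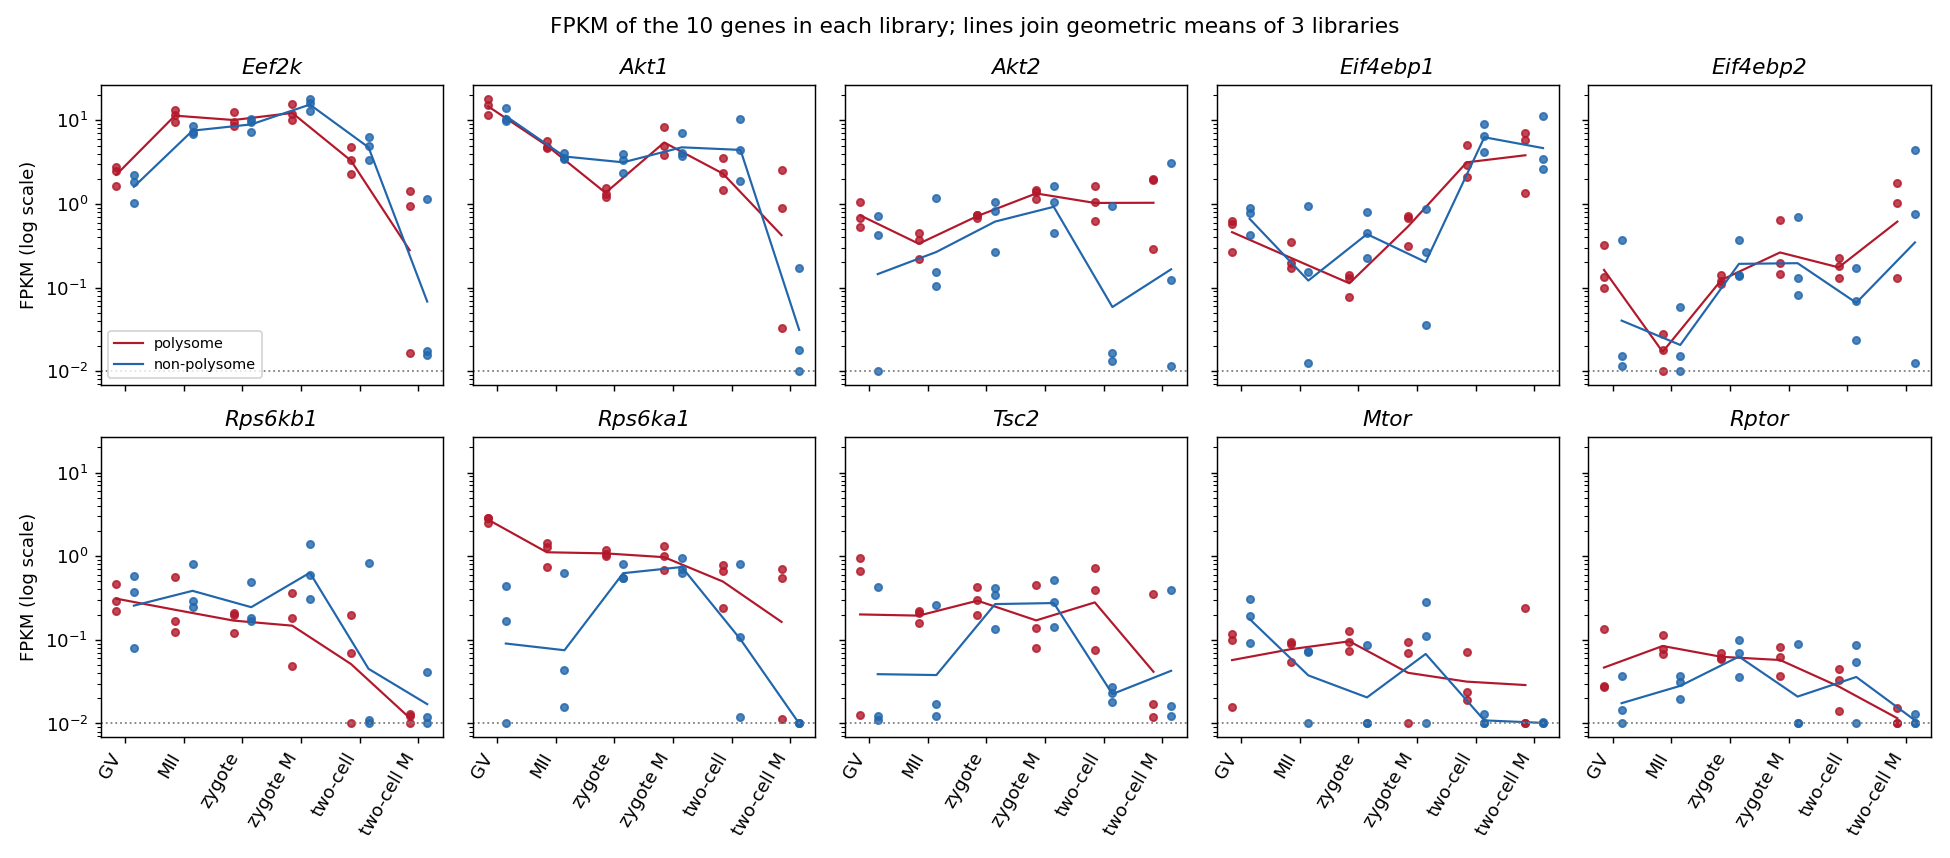
Level of each of the 10 mRNAs in every library, as FPKM on a log axis, by stage and fraction (polysomes in red, non-polysomes in blue; points, libraries; lines, geometric means; dotted line, the floor of 0.01 FPKM). Eef2k is highest from MII to zygote M, Akt1 is highest in GV, Eif4ebp1 is highest at the two-cell stages, and Mtor and Rptor are at most 0.311 and 0.133 FPKM in any library.

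Between successive stages a gene was called at an adjusted p under 0.05 and a fold change over 2. In polysomes 0 of the 8 were called from GV to MII (1 with an unadjusted p under 0.05, by limma) against 6.11% of all genes, 0 from MII to zygote (0 unadjusted) against 4.57%, 0 from zygote to zygote M (0 unadjusted) against 5.75%, and 0 from zygote M to two-cell (1 unadjusted) against 6.19%. From two-cell to two-cell M 1 was called (Eef2k) against 36.3%. Across wider steps 1 was called from GV to zygote (Akt1) against 5.61%, 0 from GV to two-cell (3 unadjusted) against 16.7%, 0 from MII to zygote M (1 unadjusted) against 12.4%, and 5 from MII to two-cell M against 53.0%. The shared spread of this fit includes the variable two-cell M libraries. When each comparison was fitted on its own 6 libraries, 23 of 72 comparisons were called in place of 7. Per comparison, these were 3 of the 8 from GV to MII (27.1% of all genes), 3 from MII to zygote (35.4%), 2 from zygote to zygote M (33.1%), 2 from zygote M to two-cell (9.28%), 4 from GV to zygote (31.0%), 3 from GV to two-cell (20.6%), 2 from MII to zygote M (40.6%) and 4 from MII to two-cell M (49.0%). From two-cell to two-cell M, where 20.9% of all genes were called in this way, the Eef2k call was lost. Leaving out only the two-cell M libraries gave 10 calls in the 56 remaining comparisons, against 1 in the main fit. The share of all genes called in that fit is not given here, so this count is not read as a result about the 8 genes. For these 72 comparisons of the 8 genes, both adjusted p-values are given below where they differ in the call.

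Eef2k, the kinase that restrains elongation, was low in GV polysomes, about 5 times higher from MII to zygote M, and low again at the two-cell stages. Its polysomal level was 2.46, 1.66 and 2.73 FPKM in GV and 11.7, 9.53 and 13.2 FPKM in MII. Every MII library lay above every GV library (mean ± SD, 2.28 ± 0.556 against 11.5 ± 1.84 FPKM, n = 3 each). The log2 difference was 2.35 (SE 1.19) and did not pass with the spread shared by all libraries (adjusted p = 0.302), but did with the 6 libraries compared (adjusted p = 0.00409) and without the two-cell M libraries (adjusted p = 0.000102). From GV to zygote the log2 difference was 2.18, which also passed with the libraries compared (adjusted p = 0.00412) and not with the shared spread (0.374). In zygote polysomes the level was 12.5, 8.6 and 9.53 FPKM and in zygote M polysomes 11.8, 9.98 and 15.6 FPKM. The ranges of MII, zygote and zygote M overlapped, and neither successive difference passed (log2 differences of -0.17, 95% interval -2.61 to 2.26, and 0.28, -2.16 to 2.72). In two-cell polysomes the level was 4.77, 2.27 and 3.32 FPKM, below all zygote M libraries. That log2 difference of -1.89 did not pass with the shared spread (adjusted p = 0.451) and passed with the 6 libraries compared (0.0295).

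In two-cell M polysomes Eef2k was at 1.43, 0.0164 and 0.938 FPKM. All 3 values were below all two-cell values, and library B was near the floor. Eef2k fell from two-cell to two-cell M by 3.56 on the log2 scale (SE 1.19, limma adjusted p = 0.0207). Without library B of two-cell M the log2 difference was -1.51 (adjusted p = 0.274), without library A of two-cell the adjusted p was 0.0679, and with the 6 libraries compared it was 0.197. All genes tested had a median log2 difference of -1.17 in this comparison. From MII to two-cell M, both in M-phase but only two-cell M held with nocodazole, Eef2k fell by 5.34 on the log2 scale (95% interval -7.78 to -2.91, adjusted p = 0.000512). The median of all genes was -2.64. The call was kept when each of the 6 libraries was left out in turn, with a log2 difference of -3.30 without library B of two-cell M.

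The non-polysomal level of Eef2k was also low in GV and at the two-cell stages, and was highest in zygote M. It was 1.02, 2.2 and 1.84 FPKM in GV, 7.18, 8.57 and 6.93 FPKM in MII, and 9.44, 10.4 and 7.27 FPKM in zygotes. It reached 15.9, 12.9 and 17.9 FPKM in zygote M, then 4.95, 6.39 and 3.39 FPKM in two-cell embryos. GV and MII libraries did not overlap, nor did zygote M and two-cell libraries. In two-cell M it was 0.0176, 0.0155 and 1.16 FPKM, all below the two-cell libraries, with 2 of the 3 near the floor. The fall from two-cell to two-cell M was 6.13 on the log2 scale (SE 1.19, adjusted p = 0.000174, median of all genes -1.14), and was lost with only the 6 libraries compared (adjusted p = 0.135). It was called in all 6 leave-one-out fits (-8.17 to -5.06), and its size depends on the floor. The log2 difference of 2.23 from GV to MII passed with the 6 libraries compared (adjusted p = 0.0131) and not with the shared spread (0.22). No difference between polysomal and non-polysomal Eef2k passed the test at any stage, the log2 difference lying between -0.52 at the two-cell stage and 2.04 at two-cell M.

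Akt1, the kinase that relays growth factor signals to TSC and mTORC1, was highest in GV oocytes and fell by the zygote. Its polysomal level was 15.1, 11.5 and 18.2 FPKM in GV, 5.59, 4.65 and 4.78 FPKM in MII, and 1.22, 1.33 and 1.55 FPKM in zygotes. The 3 stages did not overlap. Between GV and zygote polysomes Akt1 fell by 3.43 on the log2 scale (SE 1.02, adjusted p = 0.0436), from 14.9 ± 3.33 to 1.37 ± 0.172 FPKM (n = 3 each). The call was lost when any of the 6 libraries was left out (log2 difference -3.61 to -3.28), with the replicate letter as a block (adjusted p = 0.0983) and with no minimum level (0.0576), and held with the 6 libraries alone (adjusted p = 0.0016) and without the two-cell M libraries (2.28e-05). The steps within it, -1.56 from GV to MII and -1.87 from MII to zygote, passed with the libraries compared (adjusted p = 0.00912 and 0.00043) and not with the shared spread (0.46 and 0.512). So did the log2 difference of -2.67 from GV to two-cell (adjusted p = 0.0093 against 0.0694).

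In zygote M polysomes Akt1 was at 4.9, 8.38 and 3.9 FPKM, above all zygote libraries. The log2 difference of 2.00 passed in the narrower fit (adjusted p = 0.00507) and not with the shared spread (0.345). Two-cell polysomes held 2.35, 1.47 and 3.56 FPKM and two-cell M polysomes 2.57, 0.0331 and 0.891 FPKM. The two-cell groups overlapped, with library B of two-cell M far below the rest, and the log2 difference of -2.45 did not pass (adjusted p = 0.0607; -0.61 and 0.618 without that library). It passed without polysome library A (-3.75, adjusted p = 0.00609) or C (-2.98, 0.0407) of two-cell M. Of 8 other settings it passed in 2, array weights (-3.14, 0.0165) and 0.1 added to each FPKM (-1.77, 0.047). The array weights used here and below come from an estimate that stopped before convergence. From MII to two-cell M Akt1 fell by 3.56 (SE 1.02, adjusted p = 0.00465), and this call was lost without library B (-1.72, adjusted p = 0.0891), after quantile normalization (-1.81, 0.0815) and with the 6 libraries compared (0.117).

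In non-polysomes Akt1 was at 10.3, 9.88 and 14 FPKM in GV, 3.47, 4.06 and 3.58 FPKM in MII, and 3.98, 2.33 and 3.36 FPKM in zygotes. GV libraries lay above all MII libraries, while MII and zygotes overlapped. The log2 difference from GV to MII was -1.61, which passed with the 6 libraries compared (adjusted p = 0.0111) and without the two-cell M libraries (0.0177), and not with the shared spread (0.316). It was 7.05, 3.75 and 4.07 FPKM in zygote M, 4.47, 1.87 and 10.4 FPKM in two-cell, and 0.0178, 0.172 and 0.01 FPKM in two-cell M embryos. The last group lay below every other non-polysome library. The fall from two-cell to two-cell M was 7.14 (SE 1.02, adjusted p = 2.44e-06), kept in each of 6 leave-one-out fits, although with 1 library at the floor its size depends on the floor.

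Akt2, the paralog better known for insulin signalling, showed no call in any stage comparison with the shared spread. In polysomes it was at 0.537, 1.07 and 0.681 FPKM in GV, 0.22, 0.376 and 0.453 FPKM in MII, and 0.746, 0.671 and 0.737 FPKM in zygotes. MII was the lowest group, below all libraries of both neighbours. It was 1.16, 1.39 and 1.48 FPKM in zygote M, 1.62, 1.06 and 0.634 FPKM in two-cell, and 2.01, 0.286 and 1.92 FPKM in two-cell M embryos. The differences from MII were 1.10 to zygote and 2.00 to zygote M on the log2 scale (adjusted p = 0.0439 and 0.0113 with the libraries compared, 1 and 0.519 with the shared spread). Non-polysomal Akt2 ranged from 0.01 to 3.1 FPKM and libraries of 1 group spanned most of that range, as in two-cell embryos (0.0164, 0.0131 and 0.938 FPKM). The table also lists the pseudogene Akt2-ps, with which Akt2 may share reads.

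Eif4ebp1 (4E-BP1) had its highest levels in two-cell embryos. In polysomes it was at 0.631, 0.269 and 0.575 FPKM in GV, 0.172, 0.196 and 0.348 FPKM in MII, and 0.0781, 0.13 and 0.141 FPKM in zygotes. The zygote libraries were the lowest, below all MII libraries. It was 0.314, 0.683 and 0.726 FPKM in zygote M, 2.12, 5.07 and 2.9 FPKM in two-cell, and 5.88, 1.34 and 7.09 FPKM in two-cell M embryos. Each step from MII to the two-cell stage was free of overlap, and the two-cell groups overlapped each other. Eif4ebp1 rose from MII to two-cell M by 4.07 on the log2 scale (SE 1.11, adjusted p = 0.00325), against a median of -2.64 for all genes, and the call was kept in all 6 leave-one-out fits (3.63 to 4.83) and with the 6 libraries compared (0.0102). The successive steps of 2.26 from zygote to zygote M and 2.55 from zygote M to two-cell passed in the narrower fit (adjusted p = 0.0155 and 0.0421) and not with the shared spread (0.314 and 0.211). The same held for the log2 differences from GV, -2.03 to zygote (0.0317 against 0.374) and 2.77 to two-cell (0.0239 against 0.0846).

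In non-polysomes Eif4ebp1 was at 0.895, 0.423 and 0.773 FPKM in GV, 0.0125, 0.152 and 0.943 FPKM in MII, and 0.454, 0.225 and 0.812 FPKM in zygotes. These groups overlapped. It was 0.875, 0.0355 and 0.266 FPKM in zygote M, 8.95, 4.21 and 6.56 FPKM in two-cell, and 3.47, 11.2 and 2.6 FPKM in two-cell M embryos. Of the non-polysomal comparisons, 0 of the 8 genes were called from GV to MII (1 unadjusted, limma) against 16.6% of all genes, 0 from MII to zygote (2 unadjusted) against 3.28%, 0 from zygote to zygote M (0 unadjusted) against 10.4%, 2 from zygote M to two-cell against 22.9%, and 2 (Akt1 and Eef2k, above) from two-cell to two-cell M against 36.1%. Eif4ebp1 rose from zygote M to two-cell by 4.96 (SE 1.11, adjusted p = 0.00148), without overlap and in all 6 leave-one-out fits (3.70 to 6.01). With the 6 libraries compared the adjusted p was 0.0916 and with array weights 0.14. Blood genes were also higher at these stages: 4 of 6 listed were in the table, with summed levels of 0.04 to 1.33 FPKM in polysomes up to zygote M and 24.4 to 83.7 FPKM in two-cell and two-cell M polysomes, most of it Hba-a1. In non-polysomes the sums were 99.7 to 162 FPKM in two-cell and 0.04 to 52.6 FPKM in two-cell M, where 1 library was at the floor for Hba-a1 and all 3 held 2.6 FPKM or more of Eif4ebp1. The part of this in the Eif4ebp1 values was not tested.

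Eif4ebp2, the second 4E-BP, was lowest in MII polysomes. Its polysomal level was 0.323, 0.0996 and 0.134 FPKM in GV, 0.01, 0.018 and 0.0276 FPKM in MII, and 0.109, 0.121 and 0.142 FPKM in zygotes. MII lay below both neighbours in every library and at or near the floor. It was 0.196, 0.646 and 0.144 FPKM in zygote M, 0.182, 0.223 and 0.131 FPKM in two-cell, and 0.129, 1.77 and 1.02 FPKM in two-cell M embryos. Eif4ebp2 rose from MII to two-cell M by 5.17 on the log2 scale (SE 1.46, adjusted p = 0.00434), a size that depends on the floor. With 1 added to each FPKM the log2 difference was 0.86 and the gene was no longer called. The log2 differences were -3.25 from GV to MII, 2.85 from MII to zygote and 3.95 from MII to zygote M, none of which passed with the shared spread (adjusted p = 0.225, 0.46 and 0.0789), all of which passed in the narrower fit (0.0137, 0.00311 and 0.00639). In non-polysomes Eif4ebp2 ranged from 0.01 to 4.39 FPKM and had no call.

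**Figure D2:**
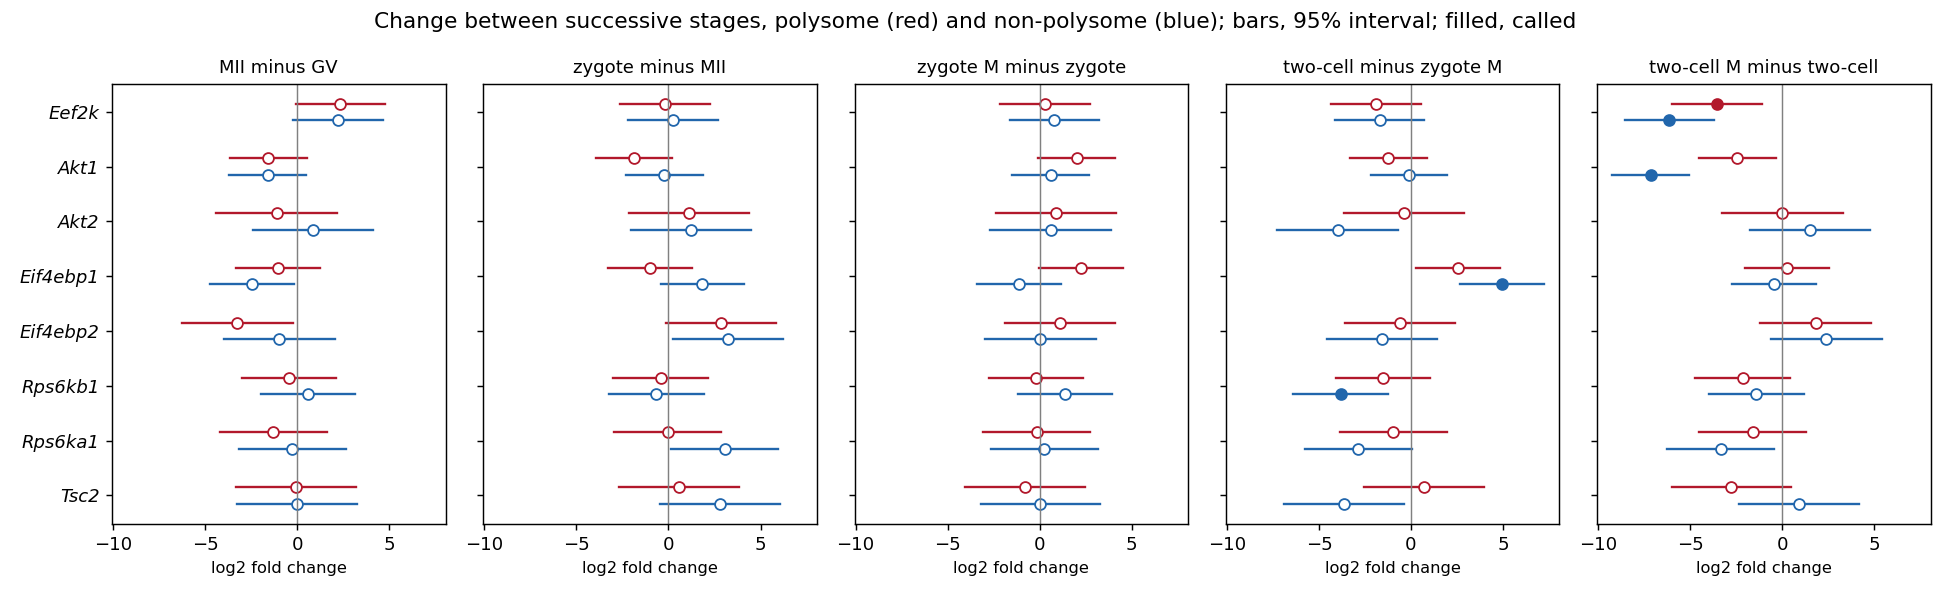
Log2 difference between successive stages for the 8 tested genes (red, polysomes; blue, non-polysomes; bars, 95% intervals of the limma fit; filled points, called). Few points are filled: Eef2k in both fractions and Akt1 in non-polysomes at the step to two-cell M, and Rps6kb1 and Eif4ebp1 in non-polysomes at the step to two-cell.

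Rps6kb1, which encodes S6 kinase 1, was scarce at every stage and near the floor in two-cell M polysomes. In polysomes it was at 0.289, 0.223 and 0.465 FPKM in GV, 0.568, 0.17 and 0.124 FPKM in MII, and 0.196, 0.208 and 0.12 FPKM in zygotes. The MII group overlapped both neighbours. It was 0.184, 0.0482 and 0.363 FPKM in zygote M, 0.197, 0.069 and 0.01 FPKM in two-cell, and 0.0122, 0.013 and 0.01 FPKM in two-cell M embryos, where all 3 libraries were at or near the floor. Rps6kb1 fell from MII to two-cell M by 4.29 (SE 1.26, adjusted p = 0.00554). That value is set by the floor, the log2 difference was -0.33 with 1 added to each FPKM (adjusted p = 0.181), and after quantile normalization the log2 difference was 0.62 (adjusted p = 0.676). In non-polysomes Rps6kb1 was called lower in two-cell embryos (0.01, 0.829 and 0.011 FPKM) than in zygote M (0.592, 1.4 and 0.307 FPKM), with a log2 difference of -3.81 (adjusted p = 0.027), although library B of two-cell overlapped the zygote M range. Leaving out libraries A or B of zygote M or A or C of two-cell ended this call (adjusted p = 0.0569, 0.102, 0.15 and 0.135). So did 6 of 8 other settings, among them only the libraries compared (0.343), quantile normalization (log2 difference -1.86, adjusted p = 0.246), 1 added to each FPKM (-0.47, 0.0947) and no minimum level (0.0538).

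Rps6ka1 (RSK1) was called higher in polysomes than in non-polysomes of GV oocytes, a call kept in 1 of 6 leave-one-out fits (given below). Its polysomal level was 2.46, 2.89 and 2.86 FPKM in GV, 1.29, 0.739 and 1.45 FPKM in MII, and 1.2, 1.05 and 1 FPKM in zygotes. GV polysomes lay above all later polysome libraries. It was 0.68, 1.01 and 1.34 FPKM in zygote M, 0.664, 0.777 and 0.239 FPKM in two-cell, and 0.0113, 0.709 and 0.548 FPKM in two-cell M embryos. The log2 differences from GV, -1.34 to zygote and -2.46 to two-cell, passed with the libraries compared (adjusted p = 0.0129 and 0.0363) and not with the shared spread (0.728 and 0.253). In non-polysomes it was at 0.168, 0.01 and 0.439 FPKM in GV, 0.0433, 0.0156 and 0.627 FPKM in MII, and 0.556, 0.543 and 0.813 FPKM in zygotes. It was 0.694, 0.625 and 0.943 FPKM in zygote M, 0.803, 0.0119 and 0.109 FPKM in two-cell, and at the floor of 0.01 FPKM in all 3 two-cell M libraries.

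Tsc2 was at 0.951, 0.0127 and 0.674 FPKM in GV polysomes, 0.159, 0.221 and 0.21 FPKM in MII, and 0.43, 0.301 and 0.196 FPKM in zygotes. It was 0.0806, 0.451 and 0.137 FPKM in zygote M, 0.731, 0.399 and 0.0754 FPKM in two-cell, and 0.017, 0.0119 and 0.353 FPKM in two-cell M polysomes. Single libraries of GV and two-cell M departed by over 10 times from the others of their group, and no comparison was called for Tsc2 in either fraction. Non-polysomal Tsc2 was at most 0.521 FPKM, and 7 of its 18 libraries were at or under 0.02 FPKM.

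Mtor and Rptor, the catalytic and scaffold subunits of mTORC1, were the scarcest of the 10. Mtor ranged from 0.01 to 0.239 FPKM in polysomes, with 3 of 18 libraries at the floor, and from 0.01 to 0.311 FPKM in non-polysomes, with 8 of 18 at the floor. Its MII polysome libraries held 0.0898, 0.0941 and 0.0545 FPKM, within the GV range of 0.119, 0.0159 and 0.0992 FPKM. Rptor was at 0.0275, 0.133 and 0.0277 FPKM in GV, 0.0772, 0.115 and 0.0677 FPKM in MII, and 0.0586, 0.0602 and 0.0698 FPKM in zygote polysomes. It was at 0.01, 0.0154 and 0.01 FPKM in two-cell M polysomes, below every other polysome library except 1 of two-cell embryos at 0.0141 FPKM. With no minimum level applied, the Rptor level of two-cell M polysomes was called below that of MII polysomes (log2 difference -2.87, adjusted p = 0.00922). That size depends on the floor, with 2 of the 3 two-cell M libraries at it. It is near the median of all genes in the main fit (-2.64). Mtor was called in none of the stage comparisons run (9 in polysomes and 5 successive ones in non-polysomes), while its F-test over the stages passed in non-polysomes (adjusted p = 0.0415), where the GV libraries held 0.193, 0.311 and 0.0924 FPKM. In the main fit 78.3% of all genes tested passed the F-test in non-polysomes.

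The polysome and non-polysome libraries of each stage were then compared for each gene. Each library was scaled to its own total, so a difference is one of relative level and not a share of the molecules. Of the 8 genes, 1 was called in GV (4.96% of all genes), 0 in MII (1 unadjusted, limma; 0.753%), 0 in zygotes (0 unadjusted; 1.38%), 0 in zygote M (0 unadjusted; 1.92%), 0 in two-cell (2 unadjusted; 16.1%) and 1 in two-cell M (14.8%). Rps6ka1 was higher in polysomes of GV oocytes, at 2.74 ± 0.237 against 0.206 ± 0.217 FPKM (n = 3 each), by 4.92 on the log2 scale (SE 1.42, adjusted p = 0.041). All polysome libraries lay above all non-polysome libraries, and 1 of the latter was at the floor, which sets part of the fold. The call was kept in 1 of 6 leave-one-out fits (log2 difference 3.33 to 6.06, 3.33 and adjusted p = 0.328 without non-polysome library B) and not with the 6 libraries compared (0.112) or with no minimum level (0.0701), but held without the two-cell M libraries (0.0131). In MII oocytes Rps6ka1 was again higher in every polysome library (1.16 ± 0.371 against 0.229 ± 0.345 FPKM), and the log2 difference of 3.89 did not pass (adjusted p = 0.369). Of 9 other settings it passed in 1, array weights (3.91, adjusted p = 0.00116). In two-cell M embryos, where all non-polysome libraries were at the floor, the Rps6ka1 adjusted p was 0.0536. It passed after quantile normalization (0.0128) and with the gradient as a random block (0.0429). For that block both fractions of a letter were taken as 1 gradient, which the labels do not state. In zygotes Akt1 was lower in all polysome than in all non-polysome libraries, and its log2 difference of -1.21 did not pass with the shared spread (adjusted p = 1). Of 10 other settings it passed in 2, the 6 libraries compared (0.0185) and array weights (0.00195). Eif4ebp1 was likewise lower in all zygote polysome libraries (log2 difference -1.95, adjusted p = 0.0459 with the 6 libraries compared and 0.863 with the shared spread). Akt1 was called higher in polysomes of two-cell M embryos (log2 difference 3.76, adjusted p = 0.012). The fractions overlapped there, because polysome library B at 0.0331 FPKM lay below non-polysome library B at 0.172 FPKM, and the call was lost without polysome library A (adjusted p = 0.103), polysome library C (0.063) or non-polysome library C (0.0651). It was also lost with the 6 libraries compared (adjusted p = 0.53), with array weights (0.325), after quantile normalization (log2 difference 1.75, adjusted p = 0.221) and with 1 added to each FPKM (0.84, 0.176).

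**Figure D3:**
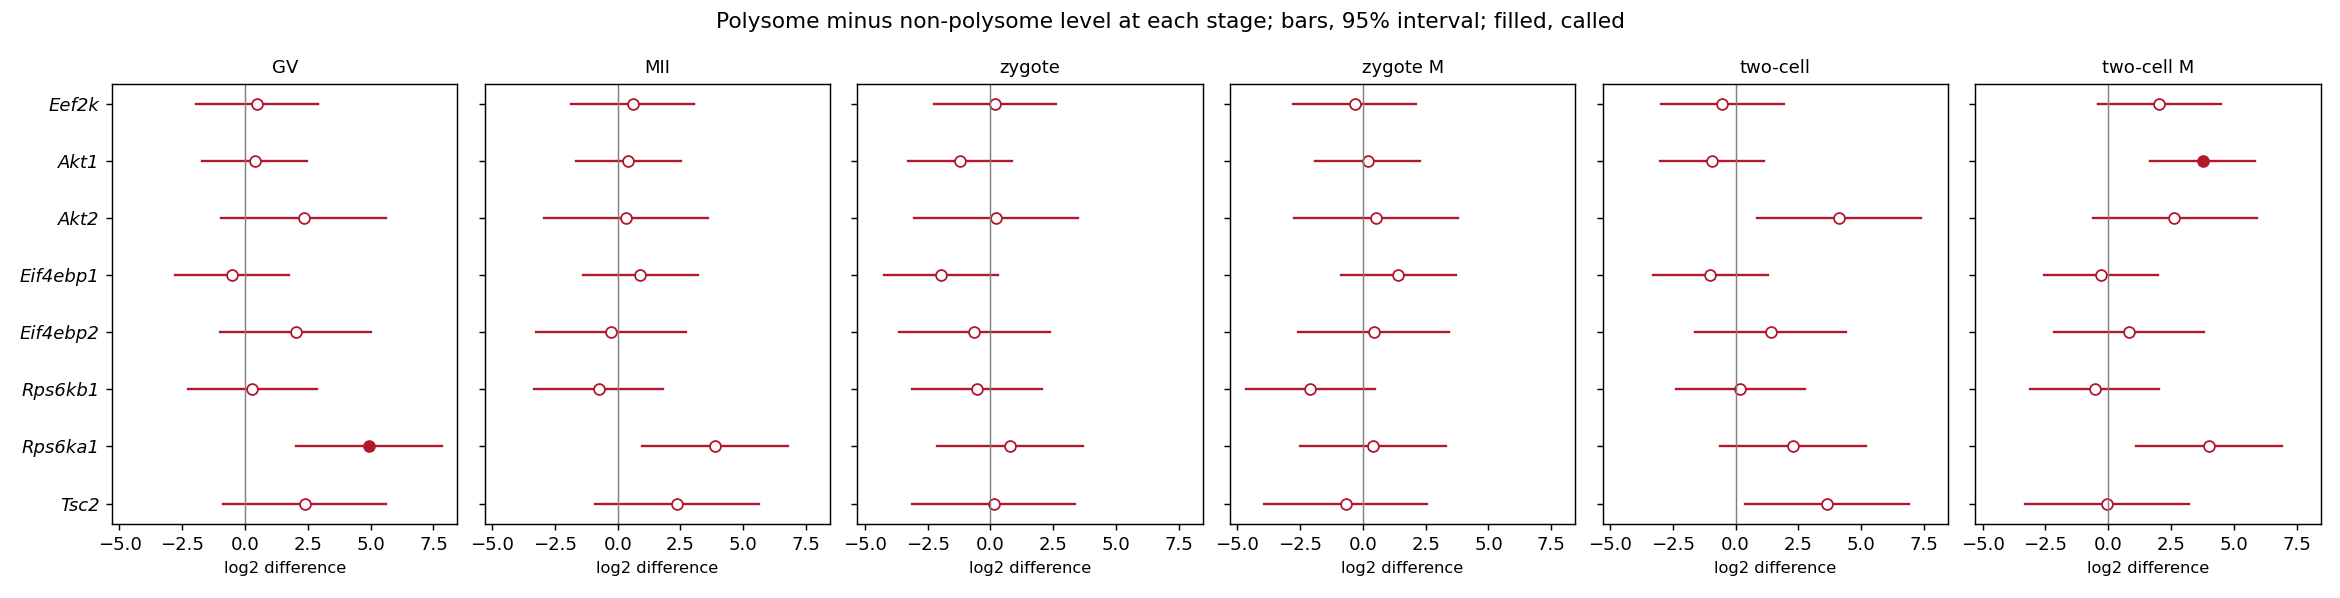
Polysome minus non-polysome level at each stage for the 8 tested genes, as a log2 difference (bars, 95% intervals of the limma fit; filled points, called). The filled points are Rps6ka1 in GV and Akt1 in two-cell M, and most other intervals cross 0.

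Whether the fraction difference itself changed on entry into M-phase was tested as an interaction. For MII against GV 0 of the 8 genes were called (0 unadjusted, limma) against 0.163% of all genes, for zygote M against zygote 0 (1 unadjusted) against 0.289%, and for two-cell M against two-cell 0 (1 unadjusted) against 5.75%. Eif4ebp1 had the difference with an unadjusted p under 0.05 at the zygote (3.36 on the log2 scale, adjusted p = 0.61) and Akt1 at the two-cell stage (4.70, adjusted p = 0.0501). With the gradient as a random block, both fractions of a letter being taken as 1 gradient, the Akt1 adjusted p was 0.0415. The Akt1 difference was called in 3 of 12 leave-one-out fits (3.40 to 6.54, the highest without polysome library B of two-cell M) and in 2 of 9 other settings.

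The 3 entries into M-phase (GV to MII, zygote to zygote M, two-cell to two-cell M) were compared with each other in polysomes. This comparison was added after the values had been seen. Between the oocyte and the zygote 0 of the 8 genes were called (3 unadjusted, limma) against 9.51% of all genes, between the oocyte and the two-cell embryo 1 against 23.5%, and between the zygote and the two-cell embryo 1 against 23.7%. The Eef2k change differed between oocyte and two-cell embryo by 5.91 on the log2 scale (95% interval 2.46 to 9.35, adjusted p = 0.0107), being 2.35 at MII and -3.56 at two-cell M. It was called in all 12 leave-one-out fits, with 3.86 without library B of two-cell M. The Akt1 change differed between zygote and two-cell embryo by 4.44 (SE 1.44, adjusted p = 0.0252), being 2.00 at zygote M and -2.45 at two-cell M. It was lost without library B of zygote M (adjusted p = 0.0592), C of two-cell (0.0561) or B of two-cell M (2.60, 0.0997), and with only the libraries compared (0.0837). All genes tested had a median log2 difference of 1.41 between oocyte and two-cell embryo, and of 0.86 between zygote and two-cell embryo. The two-cell M libraries had the lower depth given above, and the part of depth in the Eef2k and Akt1 differences was not tested. MII oocytes were not held with nocodazole, so drug and stage cannot be told apart in the oocyte comparisons.

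Other genes of the pathway were read from a list of 79 sorted by role, of which 77 were in the table and 48 were tested. In polysomes 0 were called from GV to MII (5 with an unadjusted p under 0.05, limma), where 3.36% of all genes rose and 2.75% fell. After that 2 rose and 0 fell from MII to zygote (1.03% and 3.54% of all genes), 1 rose and 1 fell from zygote to zygote M (3.24% and 2.51%), and 0 rose and 3 fell from zygote M to two-cell (3.31% and 2.87%). From two-cell to two-cell M 6 rose (12.5%, against 8.13% of all genes) and 12 fell (25%, against 28.1%), with a median log2 difference of -0.31 against -1.17 for all genes. From MII to two-cell M 5 rose (10.4%, against 7.86% of all genes) and 19 fell (39.6%, against 45.2%), with a median of -1.64 against -2.64. These shares were near those of all genes. By role, 5 of 9 tested genes of the mTOR complexes and 6 of 8 of the Rag, Ragulator and folliculin group fell between MII and two-cell M, where 45.2% of all genes fell, while in the cap-binding and initiation group 3 rose and 2 fell among 12. In the GATOR group 3 fell and 1 rose among 7, and for TSC and Rheb 2 fell and 1 rose among 4. Of the S6 kinase group 1 of 2 fell, and 0 of 4 energy stress genes were called. The PI3K and elongation groups, with 1 tested gene each, had no call.

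Among cap-binding genes, Eif4e1b, an oocyte paralog of eIF4E, rose from MII to zygote from 8.64 ± 2.11 to 104 ± 4.26 FPKM in polysomes (log2 difference 3.63, adjusted p = 0.0248, lost in each of 6 leave-one-out fits and with the replicate letter as a block). It fell from two-cell to two-cell M from 33.2 ± 18 to 1.55 ± 2.53 FPKM (-6.81, adjusted p = 5.46e-06). Eif4e itself, the target of the 4E-BPs, had polysomal means of 1.82 to 5.87 FPKM and no call. Mknk2, which encodes a kinase of eIF4E, rose from MII (0.0371 ± 0.0469 FPKM, 2 of 3 libraries at the floor) to two-cell M (11.3 ± 1.95 FPKM, adjusted p = 2.2e-05). At the step from two-cell to two-cell M, Mknk2 rose as well (4.67, adjusted p = 0.019), where Eif4e1b fell.

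Of the upstream regulators, Ddit4 (REDD1, an inhibitor of mTORC1) rose from 5.46 ± 0.642 FPKM in MII to 63.5 ± 24.3 FPKM in zygote M polysomes (log2 difference 3.48, adjusted p = 0.000848). Lamtor2, a Ragulator subunit that helps to place mTORC1 on lysosomes, rose from 2.48 ± 0.428 FPKM in zygotes to 27.3 ± 4.38 FPKM in zygote M (3.46, adjusted p = 0.00301). It then fell at both following steps, by 2.52 to two-cell (adjusted p = 0.0387) and by 3.67 to two-cell M (0.000357). Nprl2, a subunit of GATOR1, which restrains mTORC1, fell from 141 ± 13.6 FPKM in MII to 2.26 ± 1.96 FPKM in two-cell M, with 1 library of the latter at the floor (adjusted p = 0.000132). The calls of Ddit4, of the Lamtor2 rise and of Nprl2 were kept in each of their 6 leave-one-out fits.

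In the TSC complex, the partner Tsc1 had polysomal means of 0.183, 0.384, 1.35, 1.33, 1.35 and 0.386 FPKM from GV to two-cell M, and fell at the last step (log2 difference -4.09, adjusted p = 0.0255) with overlapping libraries. Tbc1d7, the third subunit, fell from 0.84 ± 0.395 FPKM in zygote M to 0.0264 ± 0.0159 FPKM in two-cell polysomes (-5.11, adjusted p = 0.0343, lost in each of 6 leave-one-out fits and with 1 added to each FPKM). Rheb, the GTPase they control, fell from 0.782 ± 0.32 FPKM in GV to 0.0452 ± 0.0291 FPKM in two-cell polysomes (-4.35, adjusted p = 0.0227), a call lost without library B of GV (0.0563), C of GV (0.0792) or A of two-cell (0.105) and with 1 added to each FPKM (log2 difference -0.75). Its paralog Rhebl1 rose from 1.7 ± 1.52 FPKM in two-cell to 18.1 ± 12.5 FPKM in two-cell M polysomes (4.89, adjusted p = 0.000495), with 2.64 without library A of two-cell, and the call was lost with the 6 libraries compared (adjusted p = 0.126). Rictor, which defines mTORC2, fell at the same step by 3.30 (adjusted p = 0.0349), from 0.168 ± 0.104 to 0.0153 ± 0.00914 FPKM, a call lost without library B or C of two-cell or A or C of two-cell M (adjusted p = 0.109, 0.108, 0.0958 and 0.0849). The Rictor call was kept in 1 of 7 other settings, and its log2 difference was -0.72 after quantile normalization (adjusted p = 0.557) and -0.20 with 1 added to each FPKM (0.516). With Rictor, 4 of 9 tested genes of the mTOR complexes fell at this step, where 28.1% of all genes fell. The others were Prr5l (-6.09, adjusted p = 2.29e-08), Prr5 (-3.26, 1.46e-05) and Deptor (-3.70, 0.00598), each without overlap. From GV to two-cell Rhebl1 had a log2 difference of -2.70 (adjusted p = 0.0676), of the same sign as Rheb, and from two-cell to two-cell M Rheb had one of -0.66 (adjusted p = 0.728).

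Among the substrates, Rps6 (ribosomal protein S6, which has processed pseudogenes that may share its reads) fell from 2.89 ± 0.102 FPKM in zygotes to 0.333 ± 0.127 FPKM in zygote M polysomes (log2 difference -3.20, adjusted p = 0.00435). It rose from 1.54 ± 0.816 FPKM in two-cell to 10.1 ± 1.9 FPKM in two-cell M polysomes (2.83, adjusted p = 0.00277). Both calls were kept in all 6 leave-one-out fits, so entry into M-phase went with a lower polysomal Rps6 level in zygotes and a higher one in two-cell embryos. In non-polysomes the fall to zygote M was also called (-5.77, adjusted p = 2.2e-06), and the change to two-cell M was not (1.04, 0.274). Eef2, the substrate of eEF2 kinase, had polysomal means of 23.2 to 108 FPKM and was higher in polysomes than in non-polysomes at the two-cell stage (1.86, adjusted p = 0.0388) and in two-cell M (2.02, adjusted p = 0.0257). The first of these calls was lost without any 1 of the polysome libraries or without non-polysome library A, with a lowest log2 difference of 0.92, and the second without polysome library A or C or non-polysome library B. Both were lost with only the libraries compared (adjusted p = 0.25 and 0.112) and with array weights (0.15 and 0.421). Rps6 went the other way, being lower in polysomes than in non-polysomes at the two-cell stage (-2.70, adjusted p = 0.00999), with no call in two-cell M (-0.91, 0.435). Rps6kb2, the S6 kinase paralog, was at 2.02 ± 0.0157 FPKM in MII and 0.432 ± 0.703 FPKM in two-cell M polysomes (-4.66, adjusted p = 0.0263, kept in 1 of 6 leave-one-out fits). That call was lost with the 6 libraries compared (adjusted p = 0.0747) and after quantile normalization (log2 difference -2.08, adjusted p = 0.224).

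**Figure D4:**
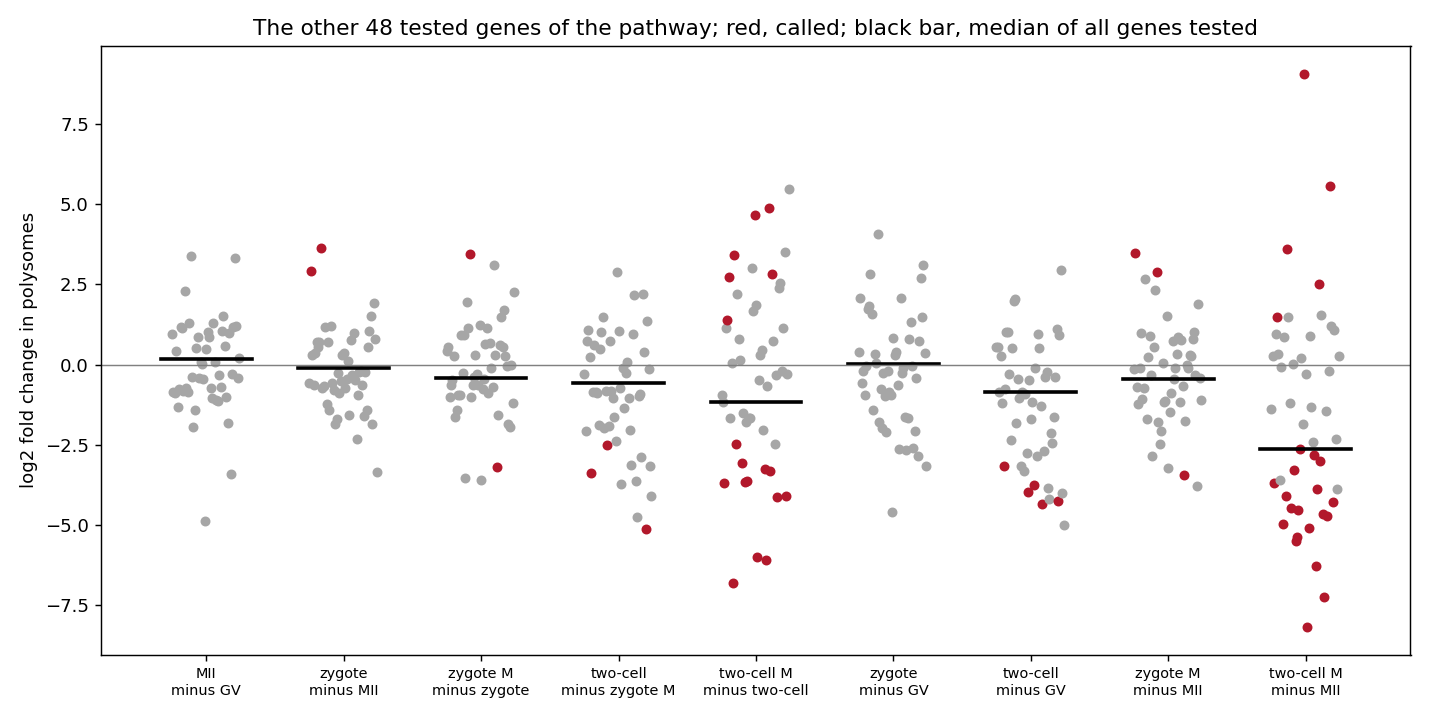
Log2 difference of the 48 tested pathway genes in the 9 polysome comparisons (points, genes; red, called; black bar, median of all genes tested). The spread of points widens and the black bar drops to -2.64 at two-cell M against MII, where 24 of the 48 are called, against 53.0% of all genes tested.

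Over the 12 group means, the genes (geometric mean of 1 FPKM or more) whose log2 level followed each member most closely were Rest for Akt1 (Pearson r = 0.98), Rab38 and 1110012L19Rik for Eef2k (0.98 each), and Gm6768 and Rnf34 for Rps6kb1 (0.96 each). For Akt2 they were Akt2-ps (0.97) and Tbc1d20 (0.90), for Eif4ebp1 Gm16381 and Gm2001 (0.94 each), and for Rps6ka1 Gm16144 (0.93) and Drg2 (0.91). Tsc2 was followed by Dyrk1b (0.92) and Gm16144 (0.87), and Eif4ebp2 by Slc25a44 (0.88) and Rn7sk (0.85). Among the members themselves r was highest for Rps6ka1 and Tsc2 (0.81) and lowest for Rps6kb1 and Eif4ebp1 (-0.86). The 12 points share libraries and the drop at two-cell M, and these values describe the pattern only.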

How the data were processed

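The authors pooled sucrose-gradient fractions into polysome and non-polysome samples and made SMART-seq v4 libraries, which prime cDNA from poly(A) tails so that tail length may affect a level. They trimmed reads with Trim Galore 0.4.1, aligned them to GRCm38 with STAR 2.5.3a and quantified FPKM over RefSeq genes. The paper names Partek Flow for its differential expression test. The deposited values are normalized FPKM with a floor of 0.01. Of 38 samples, 36 had a column and 2 zygote samples were not analysed here; the labels gave the groups (12 of 3 libraries, stated to be biological triplicates). Members and lists were chosen with earlier results of these data known.

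A limma 3.58.1 model (R 4.3.3; empirical Bayes with trend) of 12 group means over 36 libraries was fitted to log2 FPKM without an added constant, keeping genes whose geometric mean reached 0.1 FPKM. All tests were two-sided with Benjamini-Hochberg adjustment over the 7967 genes tested, and calls needed an adjusted p under 0.05 and a log2 change beyond 1. The script was tested on simulated data. Depth was read from single-exon genes (3489 used), and is approximate because FPKM holds no counts. The median residual SD over genes was 1.63 on the log2 scale. Tables were handled in Python 3.11.15 with numpy 2.4.6 and pandas 2.3.3. Genes named were the 10 members, their direct partners, the pathway genes with the largest non-overlapping rise and fall in each polysome comparison, and the 2 most similar genes per member. Some of the named genes are not reported here. Alternatives were another added value, no or a higher minimum, quantile normalization, only the libraries compared, array weights, a replicate block, each library left out and, added later, no two-cell M libraries.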

Additional observations from a re-analysis of the deposited data

Results flagged for a closer look

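The change of Eef2k on entry into M-phase differed between the oocyte and the two-cell embryo in polysomes: the interaction was 5.91 on the log2 scale (limma adjusted p = 0.0107), with every MII library above every GV library and every two-cell M library below every two-cell library. It was 3.86 (adjusted p = 0.0429) without polysome library B of two-cell M. The change of Akt1 differed between the zygote and the two-cell embryo by 4.44 (adjusted p = 0.0252), with every zygote M library above every zygote library and the two-cell groups overlapping. The Akt1 call was lost with only the libraries compared (adjusted p = 0.0837) and in 3 of 12 leave-one-out fits, down to 2.60 without polysome library B of two-cell M. Both comparisons were added after the values had been seen.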

How the results depend on the processing

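The polysome stage comparisons gave 7 calls of 72 in the main fit, 12 with 0.1 and 15 with 1 added to each FPKM, 19 after quantile normalization, 23 with only the libraries compared and 21 with array weights (an estimate that stopped before convergence), and 5 to 10 when single libraries were left out. Non-polysome calls went from 4 to 7 after quantile normalization (3 to 6 with libraries left out). Polysome against non-polysome calls went from 2 to 1 with 1 added, with no minimum or where the mean had to reach 1 FPKM, and to 4 with array weights (1 to 4 with libraries left out). Changes of the fraction difference went from 0 to 1 where the mean had to reach 1 FPKM (0 to 2 with libraries left out). M-phase differences between cell cycles went from 2 to 4 and 5 with 0.1 and 1 added, 6 after quantile normalization, 7 with only the libraries compared and 8 with array weights (1 to 4 with libraries left out). Stage effects were 9 of 16 in the main fit and 8 to 12 with libraries left out. Pathway calls in polysomes went from 57 of 432 to 93 after quantile normalization and 113 with only the libraries compared. In that last fit the share of all genes called also rose in each comparison without two-cell M, as from 6.11% to 27.1% between GV and MII. It fell where two-cell M was compared, from 36.3% to 20.9% against two-cell and from 53.0% to 49.0% against MII. The 1 direction that reversed was that of Rps6kb1 from MII to two-cell M, 0.62 after quantile normalization, which moved the median of all genes in that comparison from -2.64 to -0.14. The shares of all genes called under the other settings are not given here. Those counts are therefore not read as results about the 8 genes or the pathway list. Why the counts differ was not tested.

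Both fractions of a letter at a stage were taken to come from 1 gradient, which the labels do not state. By the residuals this pairing was weak. Polysome and non-polysome libraries of the same letter and stage correlated at -0.01 to 0.17 (mean 0.08, against -0.04 for other letters, with the same letter higher in all 6 stages). This falls short of a correlation over 0.1 in every pair. With the letter as a replicate block the polysome stage comparisons gave 6 calls, Akt1 from GV to zygote being lost, and with the gradient as a random block the changes of the fraction difference gave 1 call, Akt1 at two-cell M.

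Depth limits Eef2k and Akt1 least, except in two-cell M. Differences of Mtor, Rptor, Rps6kb1, Eif4ebp2 and Tsc2, of Eif4ebp1 before the two-cell stage and of non-polysomal Akt2 and Rps6ka1 rest on few fragments. So does part of the Akt1 and Eef2k falls at two-cell M. There non-polysomal Akt1 had 0.255, 3.7 and 0 implied fragments and Eef2k 0.611, 0.305 and 129, and polysome library B had 0.894 and 0.611. Folds near the floor of 0.01 FPKM depend on that floor. The two-cell M groups had the lowest median depth of each fraction, although single libraries overlapped other groups. Library B of their polysomes decided the size of several falls. All values are relative to the mRNA of a library, so global changes in mRNA amount are not seen.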
